A study of Mus musculus with 8 samples.

Results

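The 33 genes described here are named in studies of blood and lymphatic vessels, and they were chosen by name from the 17097 genes measured on the arrays. They fall into 26 blood vessel genes, 3 lymphatic genes (Lyve1, Prox1 and Flt4) and 4 angiogenic factor genes (Vegfa, Vegfc, Angpt1 and Angpt2), and all 33 were measured. Islets were isolated from mouse pancreas and their total RNA was read on 8 Affymetrix arrays, 2 in each of 4 groups. The groups were hIAPP transgenic mice given PBA, untreated hIAPP transgenic mice, wild-type mice given PBA, and untreated wild-type mice. PBA is 4-phenylbutyrate, a chemical chaperone, given at 1 g/kg/day for 12 weeks from the age of 8 weeks, and islets of every group were isolated at 20 weeks. All 8 samples, wild type included, carry the strain label FVB/N-Tg(Ins2-IAPP)RFHSoel/J. In that strain the insulin promoter Ins2 drives human islet amyloid polypeptide (hIAPP), a peptide hormone that can form amyloid, and beta cells are its site of expression, so endothelial cells are not the cells the transgene targets. Whether each array holds islets of separate animals or a pool is not given in the sources used here, and p-values measure only the spread between these samples, which may be technical.

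Pancreatic islets are threaded by a dense bed of fenestrated capillaries, which carry hormones away and bring glucose to the endocrine cells. Their endothelial cells are held together by junction proteins such as VE-cadherin, and they depend on VEGF-A from beta cells, read by the receptors VEGFR1 (Flt1) and VEGFR2 (Kdr). The angiopoietins are ligands of the endothelial receptor Tek, and ETS and SOX transcription factors such as Erg and Sox17 keep endothelial identity. Lymphatic vessels of the pancreas run mainly outside the islets, and are marked by Lyve1, Prox1 and the VEGF-C receptor Flt4.

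ETS factors, of which Erg is a member, recognise sites built around the letters GGAA. The upstream sequence of 4 blood vessel genes that changed in these islets is shown because it carries the letters AGGAAG, in capitals on either strand. Of the 8 changed genes with a window, Tek, Ednrb and Vegfc had no AGGAAG, and Erg had it only in a window inside its own gene. Egfl7 also has RefSeq starts inside the gene, whose windows hold 1 and 0 matches and are not shown. Each sequence is the 250 bases before a RefSeq start of the gene, read 5′ to 3′ on the gene's own strand, in the assembly GRCm38.p6. None of the 4 overlaps its own annotated gene, and overlap with other genes was not checked. The Cd34 window is chr1:194938571-194938820 on the plus strand, the Eng window chr2:32646345-32646594 on the plus strand, the Egfl7 window chr2:26580833-26581082 on the plus strand and the Tie1 window chr4:118489850-118490099 on the minus strand.
Cd34: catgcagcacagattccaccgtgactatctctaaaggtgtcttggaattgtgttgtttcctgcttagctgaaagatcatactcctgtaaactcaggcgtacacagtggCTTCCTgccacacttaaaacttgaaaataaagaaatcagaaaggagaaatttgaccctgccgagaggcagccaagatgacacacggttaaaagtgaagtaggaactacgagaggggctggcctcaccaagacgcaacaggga
Eng: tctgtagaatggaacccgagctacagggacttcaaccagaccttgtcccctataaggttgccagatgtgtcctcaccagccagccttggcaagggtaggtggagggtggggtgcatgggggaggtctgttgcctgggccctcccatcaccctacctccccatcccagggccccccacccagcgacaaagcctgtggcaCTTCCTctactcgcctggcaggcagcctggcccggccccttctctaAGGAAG
Egfl7: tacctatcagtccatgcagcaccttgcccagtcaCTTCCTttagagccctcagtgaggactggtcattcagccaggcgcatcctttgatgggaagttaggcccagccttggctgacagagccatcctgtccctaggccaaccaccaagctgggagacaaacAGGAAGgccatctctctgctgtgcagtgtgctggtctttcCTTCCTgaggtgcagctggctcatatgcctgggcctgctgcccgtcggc
Tie1: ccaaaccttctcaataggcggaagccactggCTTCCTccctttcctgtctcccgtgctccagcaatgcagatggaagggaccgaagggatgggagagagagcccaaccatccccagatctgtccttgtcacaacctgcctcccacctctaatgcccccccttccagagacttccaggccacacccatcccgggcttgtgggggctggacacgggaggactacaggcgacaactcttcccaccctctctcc
Of the 33 genes, 17 matched a window in the RefSeq table. In the 250 bases before any listed start of a gene, on both strands, AGGAAG was found for 8 of these 17 genes (47.1%). The share over all 27025 genes with a window was 32.3%. The other spellings searched were CAGGAAG (5 of 17, 29.4%, against 12.1% of all), ACAGGAA (3 of 17, 17.6%, against 8.13%), GGCAGGAA (3 of 17, 17.6%, against 3.05%), GGAAG (14 of 17, 82.4%, against 66.9%) and CCGGAAG (0 of 17, against 7.83%). The 6 spellings were chosen with earlier results of these data known, and the shares are descriptions. CAGGAAG contains AGGAAG, and GGAAG lies within 3 of the others, so the 6 searches overlap. A match describes these letters in this window and is not shown to be a bound site.

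Levels are log2 values and are not compared between genes, since each is read by its own probe set. The 95th percentile of the 23 non-specific control probe sets, 4.68 (median 3.1), is called background below. Of the 33 genes, 28 were above background on all 8 arrays, 24 of them blood vessel genes. Tal1, Flt4 and Angpt1 were above it on no array, Cldn5 on 3 arrays and Angpt2 on 7. The defining endothelial genes Pecam1, Cdh5, Kdr, Tek and Emcn were above background on every array, so all 4 islet preparations held endothelial RNA. Array pairs within a group correlated at 0.993 to 0.994 across genes (4 pairs), and pairs between groups at 0.972 to 0.994 (24 pairs). Spiked hybridisation controls were dimmer on array 1 of the PBA-treated wild type (median 7.1) than on the other arrays (9.8 to 10.2). The mean of 15 genes of acinar cells, the enzyme-making cells around the islet, was 8.31 and 9.69 on the PBA-treated hIAPP arrays and 10.13 to 11.51 on the other 6. Results are therefore also given without PBA-treated wild-type array 1 and PBA-treated hIAPP array 1, the 2 arrays in doubt.

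The first comparison asked what the hIAPP transgene changed in untreated islets. Blood vessel transcripts were higher: 16 of the 26 genes rose in untreated hIAPP islets and none fell, by 0.50 for the ETS factor gene Erg to 2.10 for Vwf, the gene of the clotting protein von Willebrand factor (log2 fold changes). Of the lymphatic genes, Lyve1, a hyaluronan receptor gene, fell by 1.25, and of the angiogenic factor genes Vegfc rose by 1.10. The 18 genes past the threshold (limma, adjusted p below 0.05) stand against 11.0% of all 17097 genes, 7.77% higher and 3.19% lower. The median log2 fold change was 0.60 over the 26 blood vessel genes and -0.05 over all genes tested. In 24 of the 26, both untreated hIAPP arrays lay above both untreated wild-type arrays, as they did for 20.9% of all genes (25.2% the other way). In whole-islet RNA, more or fewer cells of a type and more or less RNA per cell cannot be told apart.

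The second comparison asked what PBA changed in hIAPP islets. Here 16 of the 26 blood vessel genes fell and none rose, from Plvap and Ednrb at -0.60 each to Vwf at -3.20, which is 9.19-fold. Vegfc fell by 0.90, and none of the 3 lymphatic genes passed. These 17 genes stand against 8.09% of all genes, 1.78% higher and 6.32% lower. The median was -0.73 over the blood vessel genes and 0.00 over all genes tested. Both PBA-treated hIAPP arrays lay below both untreated hIAPP arrays for 24 of the 26, as for 20.8% of all genes (22.6% the other way). Both comparisons use the untreated hIAPP arrays, so their values are given side by side and the opposite signs are not independent.

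**Figure D1:**
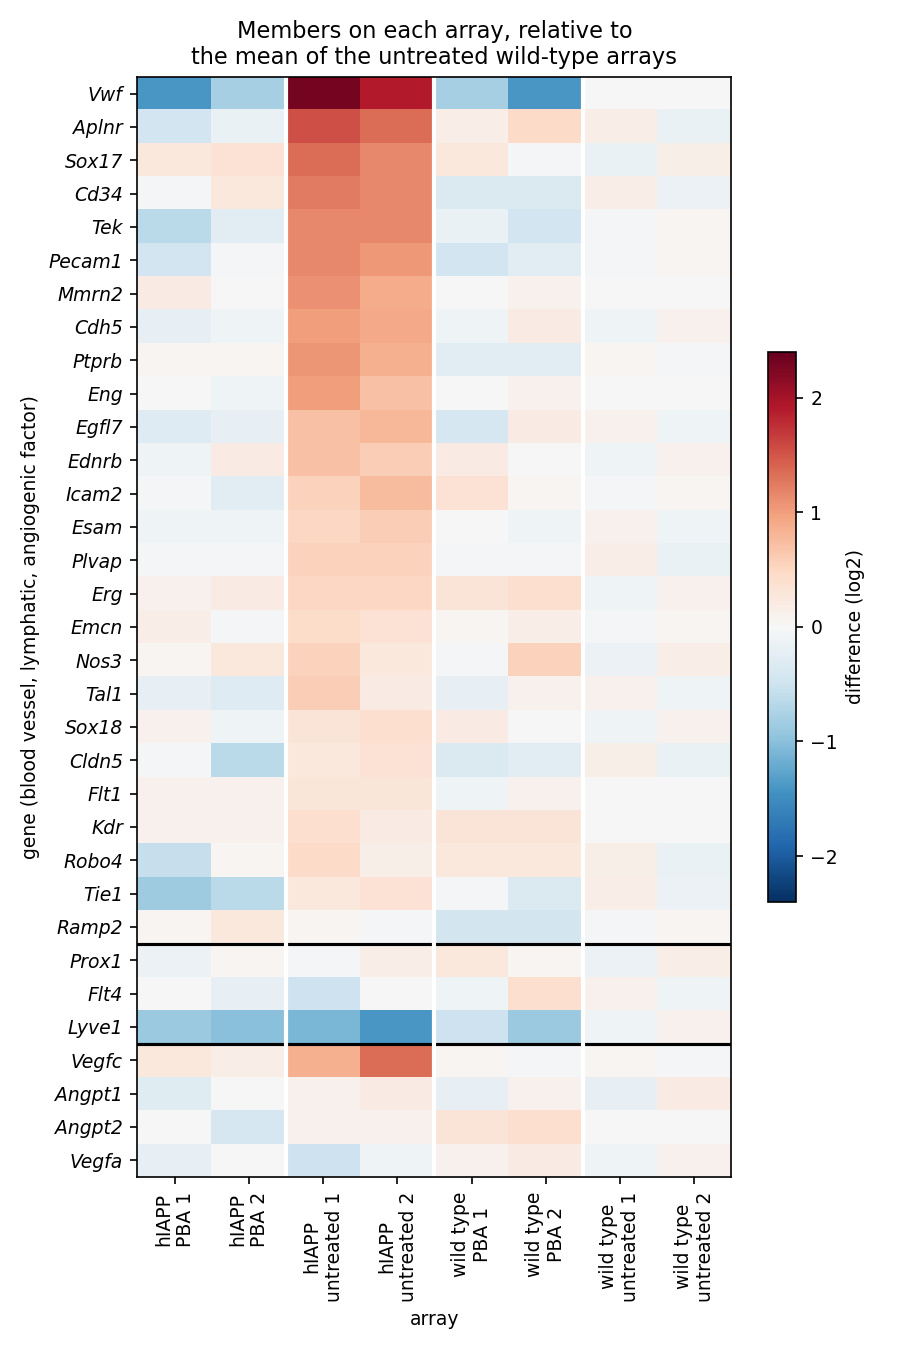
Each row is a gene and each column an array, and the colour is the gene's log2 level minus its mean on the 2 untreated wild-type arrays. Black lines part the 26 blood vessel, 3 lymphatic and 4 angiogenic factor genes. The untreated hIAPP columns are red for most blood vessel genes, up to 2.3 for Vwf, and the Lyve1 row is blue in every group but untreated wild type.

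These counts depend on the arrays fitted. For the transgene, 2 of the 33 genes passed when only the 4 arrays compared were fitted, against 2.83% of all genes. Leaving out both doubted arrays repeats that fit for the transgene and is no separate check. Neither array is in this comparison, and 1 array alone in a group adds nothing to the spread. Without 1 untreated hIAPP array, 5 (array 1) and 10 (array 2) passed, against 3.35% and 4.74% of all genes. Without 1 untreated wild-type array, 8 (array 1) and 6 (array 2) passed, against 4.44% and 3.32%. For PBA in hIAPP islets, limma called none of the 33 with only the 4 arrays, without both doubted arrays, or with the arrays' acinar mean as a covariate. At an unadjusted p under 0.05 were 22 of the 33 and 3762 of all 17097 genes with only the 4 arrays. With the covariate these were 18 of the 33 and 2112 of all genes. Adjusted, the fit to the 4 arrays called 14 of all 17097 genes (0.0819%), that with the covariate 68 (0.398%), and that without both doubted arrays none. Without 1 PBA-treated hIAPP array, 6 (array 1) and 7 (array 2) passed, against 1.56% and 2.53% of all genes. Without 1 untreated hIAPP array, 3 (array 1) and 7 (array 2) passed, against 0.971% and 1.94%. The blood vessel median for PBA in hIAPP islets was -0.73 with only the 4 arrays. That fit takes the same differences of means as the main fit, so the direction could not change. The median was -0.90 without both doubted arrays and -0.80 with the acinar covariate, with 25 of 26 genes below 0 in each. Among single genes, Mmrn2 and Ptprb kept the transgene call and Vwf and Ptprb the PBA call in all 8 fits without 1 array, while Ednrb lost the PBA call in every one (-0.75 to -0.45).

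**Figure D2:**
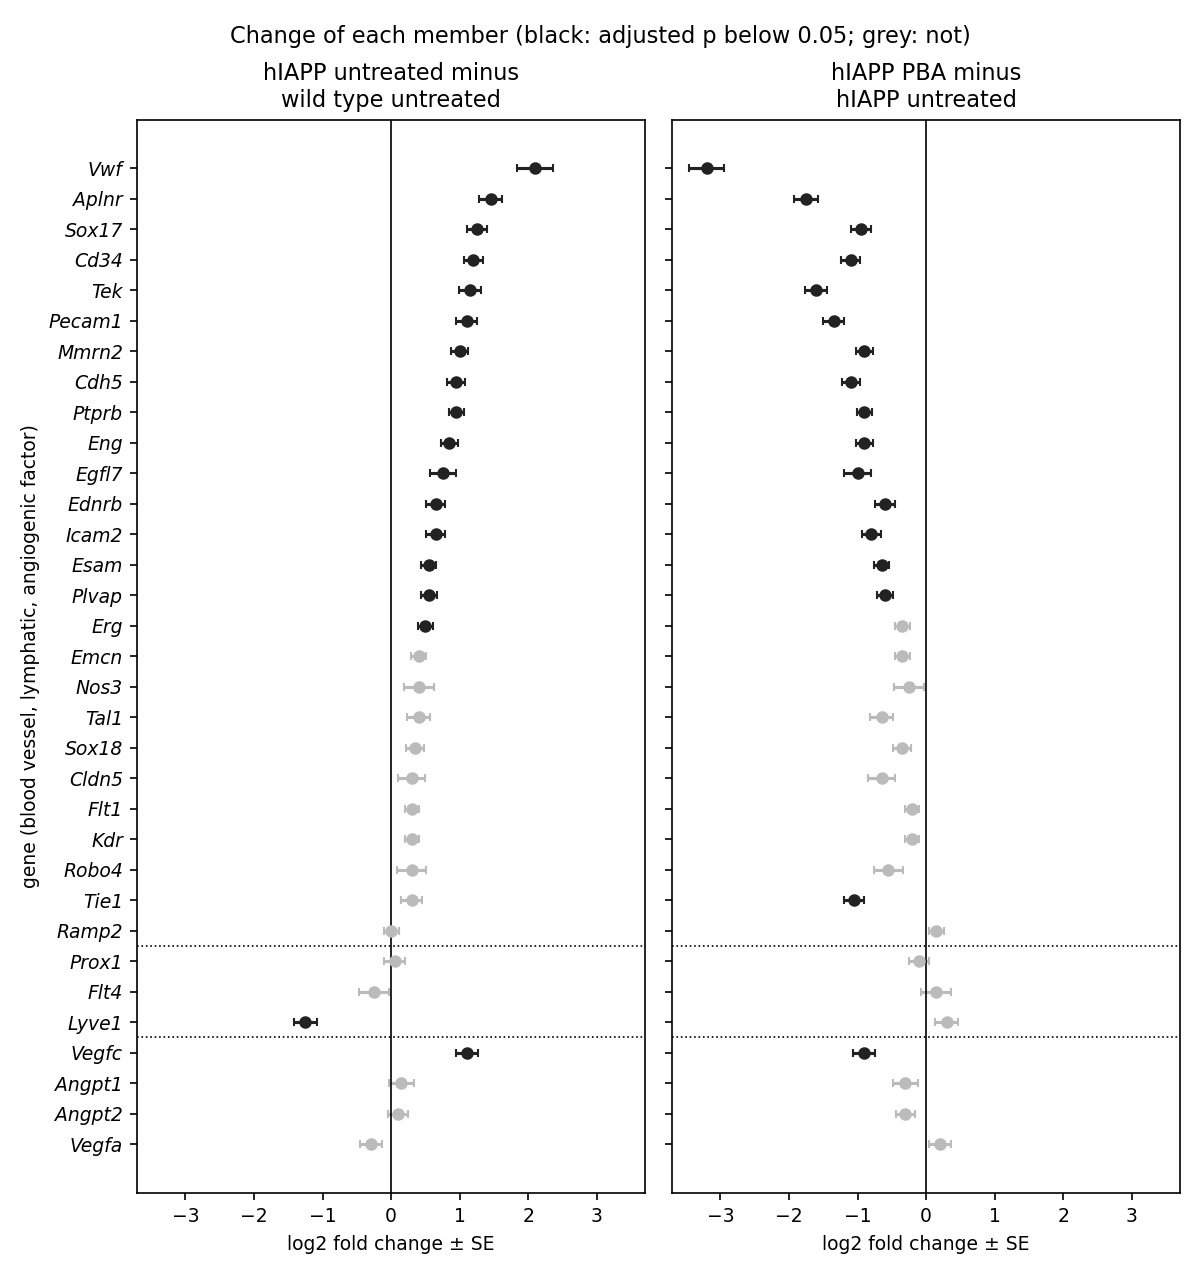
Points are log2 fold changes of the 33 genes with bars of 1 standard error (SE), for untreated hIAPP minus untreated wild type on the left and PBA-treated hIAPP minus untreated hIAPP on the right. Black points passed the test and grey points did not. Erg is black on the left panel alone and Tie1 on the right panel alone, and Tal1, Flt4 and Angpt1 were below background on all 8 arrays.

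Vwf had the largest change among the 33 genes in both comparisons. It codes for the multimeric protein that tethers platelets and is stored in endothelial granules. Vwf was at 4.9 and 5.5 on the PBA-treated hIAPP arrays and at 8.6 and 8.2 on the untreated hIAPP arrays. Vwf in wild-type islets was at 5.5 and 4.9 with PBA and at 6.3 on both arrays without it. The untreated hIAPP arrays stood above all the others, and the values with PBA were the same pair in either genotype. The change was 2.10 (SE 0.26, adjusted p = 0.0032) for the transgene and -3.20 (SE 0.26, adjusted p = 0.0016) for PBA in hIAPP islets. It passed for PBA in hIAPP islets in all 8 fits that left out 1 array (-3.50 to -2.90) and for the transgene in 5 of 8 (1.90 to 2.30).

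Among genes of endothelial junctions and adhesion, Pecam1, Cdh5, Icam2, Esam and Cd34 rose with the transgene and fell with PBA in hIAPP islets, and Cldn5 passed in neither comparison. Pecam1 (CD31), an adhesion molecule of endothelial contacts, was at 6.7 and 7.1 on the PBA-treated hIAPP arrays and at 8.3 and 8.2 on the untreated hIAPP arrays. Pecam1 in wild-type islets was at 6.7 and 6.9 with PBA and at 7.1 and 7.2 without. It changed by 1.10 (SE 0.15, adjusted p = 0.0045) for the transgene and by -1.35 (SE 0.15, adjusted p = 0.0036) for PBA in hIAPP islets. Cdh5, which codes for VE-cadherin of the adherens junction, was at 5.9 and 6.0 in PBA-treated hIAPP islets and at 7.1 and 7.0 in untreated hIAPP islets. Cdh5 in wild-type islets was at 6.0 and 6.3 with PBA and at 6.0 and 6.2 without, so the untreated hIAPP arrays stood above every other array. Its changes were 0.95 (SE 0.13, adjusted p = 0.0049) and -1.10 (SE 0.13, adjusted p = 0.0045).

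Cd34, a sialomucin of capillary endothelium and of blood progenitors, was at 7.0 and 7.3 with PBA in hIAPP islets and at 8.3 and 8.2 without it. Cd34 in wild-type islets was at 6.7 on both PBA-treated arrays and at 7.2 and 6.9 on the untreated ones. The changes were 1.2 (adjusted p = 0.0028) for the transgene and -1.10 (adjusted p = 0.0059) for PBA in hIAPP islets, SE 0.14 each. Icam2, an adhesion molecule for leukocytes, was at 6.3 and 6.1 in PBA-treated hIAPP islets and at 6.9 and 7.1 in untreated hIAPP islets. Icam2 in wild-type islets was at 6.7 and 6.4 with PBA and at 6.3 and 6.4 without, below both untreated hIAPP arrays. Esam, another junction adhesion molecule, was at 8.5 on both PBA-treated hIAPP arrays, at 9.1 and 9.2 on the untreated hIAPP arrays, and at 8.5 to 8.7 on the 4 wild-type arrays. Both passed in each comparison, with 0.65 and -0.80 for Icam2 (adjusted p = 0.0284 and 0.0164) and 0.55 and -0.65 for Esam (adjusted p = 0.0199 and 0.0134). Cldn5, a tight junction claudin, was at 4.6 and 4.0 in PBA-treated hIAPP, 4.9 and 5.0 in untreated hIAPP, 4.3 and 4.4 in PBA-treated wild-type and 4.8 and 4.5 in untreated wild-type islets. Those values lie around the background level, with adjusted p = 0.4114 for the transgene and 0.1025 for PBA in hIAPP islets.

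Mmrn2 (multimerin 2), a matrix protein laid down by endothelial cells, was at 7.9 and 7.7 in PBA-treated hIAPP islets and at 8.8 and 8.6 in untreated hIAPP islets. Mmrn2 in wild-type islets was at 7.7 and 7.8 with PBA and at 7.7 on both arrays without it. It changed by 1.0 (SE 0.12, adjusted p = 0.0026) with the transgene and by -0.90 (SE 0.12, adjusted p = 0.0059) with PBA in hIAPP islets, and all 3 of its probe sets moved alike (1.0 to 1.25, and -1.30 to -0.90). Egfl7, a secreted protein of growing vessels, was at 7.1 and 7.2 with PBA and at 8.1 and 8.2 without it in hIAPP islets. Egfl7 in wild-type islets was at 7.0 and 7.6 with PBA and at 7.5 and 7.3 without. Its changes of 0.75 (adjusted p = 0.0494) and -1.0 (adjusted p = 0.0222) passed in 2 of the 8 fits without 1 array in either comparison. Plvap, which forms the diaphragms of capillary fenestrae, was at 9.8 on both PBA-treated hIAPP arrays, at 10.4 on both untreated hIAPP arrays, at 9.8 on both PBA-treated wild-type arrays and at 10.0 and 9.7 on the untreated wild-type arrays. Its changes were among the smallest that passed, 0.55 (adjusted p = 0.0267) and -0.60 (adjusted p = 0.0251). Emcn (endomucin), a capillary and venous sialomucin, was at 9.2 to 9.7 over all 8 arrays and changed by 0.40 (adjusted p = 0.0672) and -0.35 (adjusted p = 0.1115), which did not pass. For the transgene Emcn passed with dim genes filtered out (adjusted p = 0.0374), an intensity trend and robust prior (0.0058), array weights (0.0472) and the acinar covariate (0.0495). It did not with a replicate block (0.1044) or only the groups compared (0.0852).

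Among the receptors of vessel growth, the angiopoietin receptor gene Tek passed in both comparisons and the VEGF receptor genes Kdr and Flt1 in neither. Tek (TIE2), the angiopoietin receptor, was at 6.1 and 6.5 on the PBA-treated hIAPP arrays and at 7.9 on both untreated hIAPP arrays. Tek in wild-type islets was at 6.6 and 6.3 with PBA and at 6.7 and 6.8 without, again with the untreated hIAPP arrays on their own. It changed by 1.15 (SE 0.16, adjusted p = 0.0047) and by -1.60 (SE 0.16, adjusted p = 0.0024). Tie1, the partner receptor of Tek, was at 4.7 and 4.9 in PBA-treated hIAPP islets, close to background, and at 5.8 and 5.9 in untreated hIAPP islets. Tie1 in wild-type islets was at 5.5 and 5.2 with PBA and at 5.7 and 5.4 without. It passed for PBA in hIAPP islets (-1.05, SE 0.15, adjusted p = 0.0087) and not for the transgene (0.30, SE 0.15, adjusted p = 0.2829).

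Kdr, VEGFR2, was at 9.3 on both PBA-treated hIAPP arrays, at 9.6 and 9.4 on the untreated hIAPP arrays, at 9.5 on both PBA-treated wild-type arrays and at 9.2 on both untreated wild-type arrays. Flt1, VEGFR1, was at 9.0 on both PBA-treated hIAPP arrays, at 9.2 on both untreated hIAPP arrays, at 8.8 and 9.0 in PBA-treated wild-type islets and at 8.9 on both untreated wild-type arrays. Each of these VEGF receptor genes spanned 0.4 over the 8 arrays, against 1.8 for Tek. Each changed by 0.30 for the transgene (SE 0.10, adjusted p = 0.1196) and by -0.20 for PBA in hIAPP islets (SE 0.10, adjusted p = 0.3016). For the transgene Kdr and Flt1 passed with an intensity trend and robust prior (adjusted p = 0.0307 and 0.0400), and in no other fit to all 8 arrays. The 3 probe sets of Flt1 ranged from -0.15 to 0.40 for the transgene. Ptprb (VE-PTP), a phosphatase that acts on Tek and VE-cadherin, was at 8.3 on both PBA-treated hIAPP arrays and at 9.3 and 9.1 on the untreated hIAPP arrays. Ptprb in wild-type islets was at 8.0 on both arrays with PBA and at 8.3 and 8.2 without. Its changes of 0.95 (SE 0.11, adjusted p = 0.0021) and -0.90 (SE 0.11, adjusted p = 0.0042) passed in all 8 fits without 1 array in both comparisons.

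Eng (endoglin), a co-receptor for BMP9 and TGF-beta, was at 7.8 and 7.7 in PBA-treated hIAPP islets and at 8.8 and 8.5 in untreated hIAPP islets. Eng in wild-type islets was at 7.8 and 7.9 with PBA and at 7.8 on both arrays without it. It changed by 0.85 (SE 0.12, adjusted p = 0.0056) and -0.90 (SE 0.12, adjusted p = 0.0070), and its second probe set by 0.80 and -0.65. Robo4, a guidance receptor of endothelium, ran from 5.4 to 6.4 over the arrays and passed in neither comparison (0.30 and -0.55, adjusted p = 0.4451 and 0.1720).

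Of the receptors for vasoactive peptides, Aplnr moved most. It codes for the apelin receptor, which is found on sprouting and venous endothelium. Aplnr was at 6.8 and 7.1 on the PBA-treated hIAPP arrays and at 8.8 and 8.6 on the untreated hIAPP arrays. Aplnr in wild-type islets was at 7.4 and 7.7 with PBA and at 7.4 and 7.1 without, so its mean was higher with PBA in wild type and lower with PBA in hIAPP. It changed by 1.45 (SE 0.17, adjusted p = 0.0025) for the transgene and -1.75 (SE 0.17, adjusted p = 0.0023) for PBA in hIAPP islets. Its second probe set, above background on 5 arrays, changed by 0.30 and -0.65 and did not pass. Ednrb, an endothelin receptor, was at 6.6 and 6.9 with PBA and 7.4 and 7.3 without it in hIAPP islets, and at 6.6 to 6.9 on all 4 wild-type arrays. Its changes of 0.65 (adjusted p = 0.0284) and -0.60 (adjusted p = 0.0467) rest on 1 of its probe sets, the second giving 0.20 and -0.25. Ramp2, a partner of the adrenomedullin receptor, was at 11.3 and 11.5 in PBA-treated hIAPP, 11.3 and 11.2 in untreated hIAPP, 10.8 on both PBA-treated wild-type and 11.2 and 11.3 on the untreated wild-type arrays. Its fitted change was 0.0 (SE 0.11, adjusted p = 1.0000) for the transgene, and it was the 1 blood vessel gene with a positive value for PBA in hIAPP islets (0.15, adjusted p = 0.4694). That sign rests on the brightest of its 3 probe sets. The others gave -0.05 and -0.35 for PBA in hIAPP islets, and 0.20 and 0.15 for the transgene. Nos3, endothelial nitric oxide synthase, was at 5.9 to 6.6 over the arrays and passed in neither (0.40 and -0.25, adjusted p = 0.3110 and 0.5646).

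The transcription factor genes varied in size of change. Sox17, a factor of arterial endothelium, was at 5.4 and 5.5 in PBA-treated hIAPP islets and at 6.5 and 6.3 in untreated hIAPP islets. Sox17 in wild-type islets was at 5.4 and 5.1 with PBA and at 5.0 and 5.3 without. It changed by 1.25 (SE 0.15, adjusted p = 0.0031) and -0.95 (SE 0.15, adjusted p = 0.0119). Erg, the ETS factor named above, was at 5.4 and 5.5 in PBA-treated hIAPP, 5.8 on both untreated hIAPP arrays, 5.6 and 5.7 in PBA-treated wild-type and 5.2 and 5.4 in untreated wild-type islets. It passed for the transgene (0.50, SE 0.11, adjusted p = 0.0284) and not for PBA in hIAPP islets (-0.35, SE 0.11, adjusted p = 0.1045). The transgene call was lost with the mean of all its probe sets (0.35, adjusted p = 0.1925). It was also lost with an intensity trend and robust prior in the fit (adjusted p = 0.0859). Sox18, a relative of Sox17 in vascular and lymphatic development, was at 7.6 to 8.1 and did not pass (0.35 and -0.35, adjusted p = 0.1457 and 0.1603). Tal1, a factor of blood and endothelial precursors, was at 3.4 to 4.3 over the arrays, not above background, and gets no fold.

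**Figure D3:**
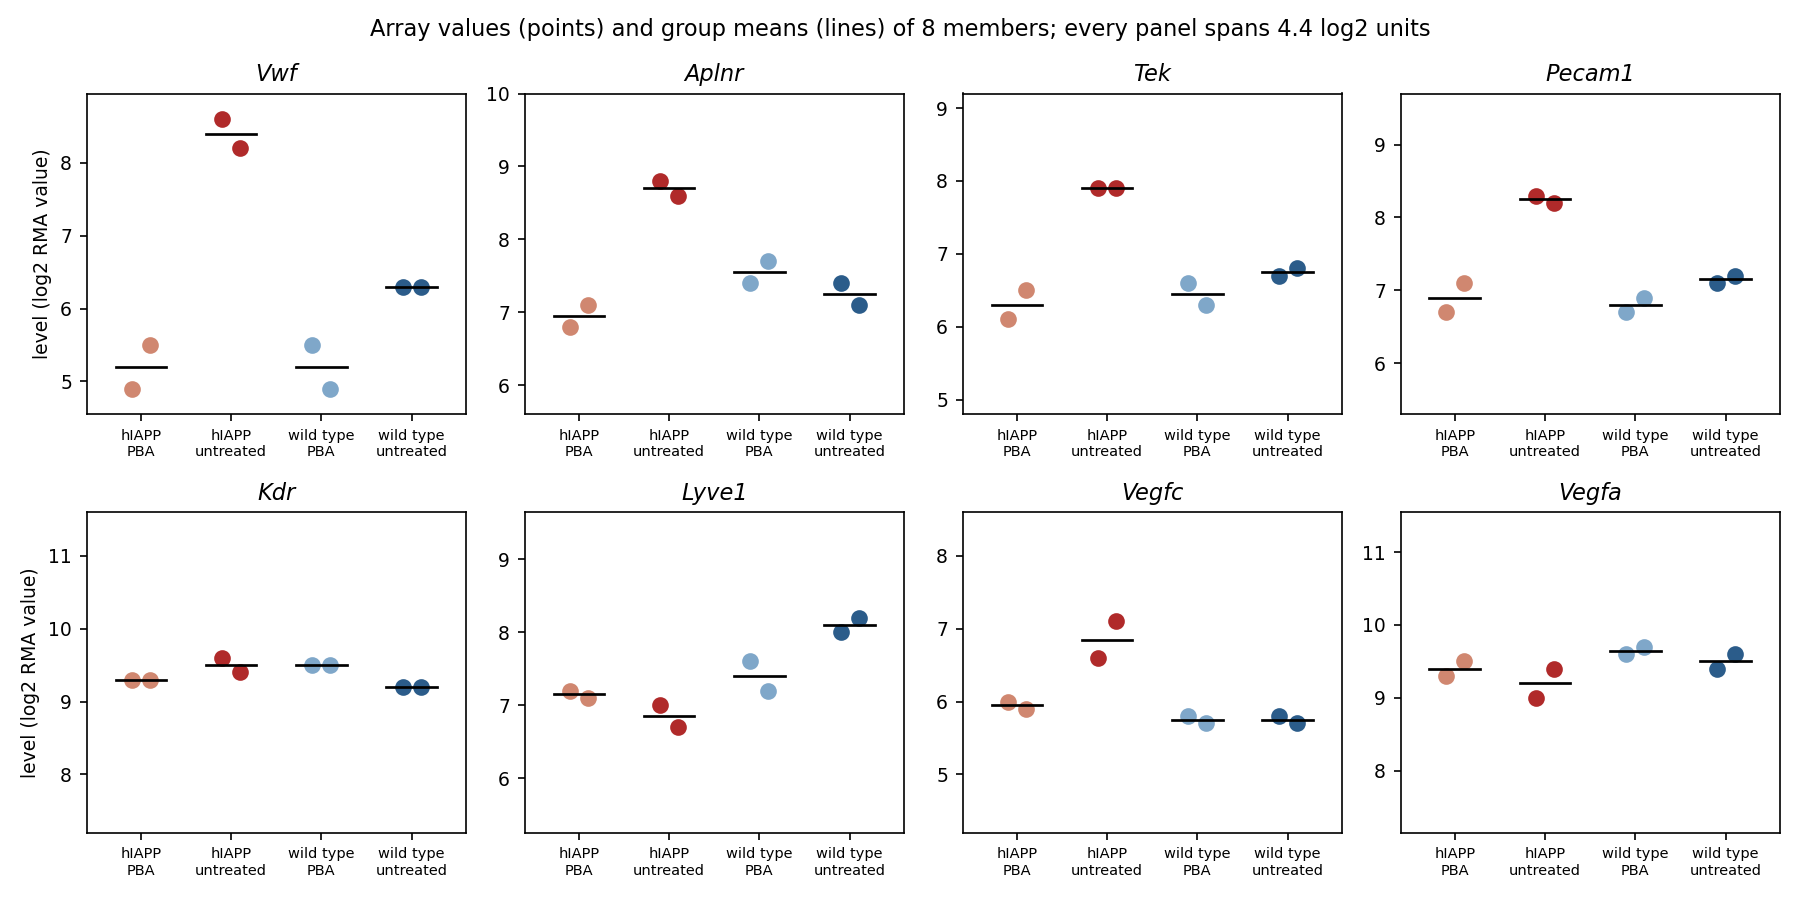
Points are the log2 values of the 2 arrays of a group and lines are group means, for 8 of the 33 genes, with the same span of 4.4 log2 units in every panel. For Vwf, Aplnr, Tek, Pecam1 and Vegfc the untreated hIAPP arrays lie above the other 6, the Kdr points lie between 9.2 and 9.6, and Lyve1 is highest on the untreated wild-type arrays.

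Of the 3 lymphatic genes Lyve1 passed, and it was lower in untreated hIAPP islets. Lyve1, a hyaluronan receptor of lymphatic endothelium that some tissue macrophages also carry, was at 7.2 and 7.1 on the PBA-treated hIAPP arrays and at 7.0 and 6.7 on the untreated hIAPP arrays. Lyve1 in wild-type islets was at 7.6 and 7.2 with PBA and at 8.0 and 8.2 without. Untreated wild-type islets thus stood above all the other arrays. Lyve1 fell with the transgene (-1.25, SE 0.17, adjusted p = 0.0041) and did not pass for PBA in hIAPP islets (0.30, SE 0.17, adjusted p = 0.3439). A second Lyve1 probe set gave 6.9 and 6.8 in PBA-treated hIAPP, 6.8 and 6.7 in untreated hIAPP, 7.0 on both PBA-treated wild-type arrays and 7.9 and 7.8 in untreated wild-type islets. Fitted with all probe sets on their own, it changed by -1.10 for the transgene (adjusted p = 0.0015) and by -1.0 in PBA-treated hIAPP against untreated wild-type islets (adjusted p = 0.0205). Prox1, a transcription factor that sets lymphatic identity and is also made by islet endocrine cells, was at 6.9 and 7.1 in PBA-treated hIAPP, 7.0 and 7.2 in untreated hIAPP, 7.3 and 7.1 in PBA-treated wild-type and 6.9 and 7.2 in untreated wild-type islets. These groups overlapped, and Prox1 changed by 0.05 and -0.10 (adjusted p = 0.8661 and 0.7496). Flt4 (VEGFR3), the VEGF-C receptor, was at 3.9 and 3.7 in PBA-treated hIAPP, 3.4 and 3.9 in untreated hIAPP, 3.8 and 4.3 in PBA-treated wild-type and 4.0 and 3.8 in untreated wild-type islets. All 8 values lie below background, so no fold is given.

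Of the angiogenic factors, Vegfc was the gene that passed. Vegfc, a growth factor for lymphatic vessels, was at 6.0 and 5.9 in PBA-treated hIAPP islets and at 6.6 and 7.1 in untreated hIAPP islets. Vegfc in wild-type islets was at 5.8 and 5.7 on both pairs of arrays, with PBA and without. It changed by 1.10 (SE 0.16, adjusted p = 0.0061) for the transgene and by -0.90 (SE 0.16, adjusted p = 0.0183) for PBA in hIAPP islets. The call for PBA in hIAPP islets held in 1 of the 8 fits without 1 array, and that for the transgene in 6. Vegfa, the main growth factor for islet capillaries, was at 9.3 and 9.5 with PBA and 9.0 and 9.4 without it in hIAPP islets. Vegfa in wild-type islets was at 9.6 and 9.7 with PBA and at 9.4 and 9.6 without. The groups overlapped in both comparisons, with changes of -0.30 (SE 0.16, adjusted p = 0.2957) and 0.20 (SE 0.16, adjusted p = 0.5124), and the second Vegfa probe set gave -0.40 and 0.25. Angpt2, a ligand of Tek released by endothelial cells, was at 5.0 and 4.6 in PBA-treated hIAPP islets, 5.1 on both untreated hIAPP arrays, 5.3 and 5.4 in PBA-treated wild-type islets and 5.0 on both untreated wild-type arrays. It did not pass (0.10 and -0.30, adjusted p = 0.7200 and 0.2577). Angpt1, the ligand that activates Tek, was at 3.2 and 3.5 in PBA-treated hIAPP, 3.6 and 3.7 in untreated hIAPP, 3.3 and 3.6 in PBA-treated wild-type and 3.3 and 3.7 in untreated wild-type islets, all below background.

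In wild-type islets PBA gave no call among the 33 genes. Limma called 0 of 33 genes, against 0.292% of all genes. At an unadjusted p below 0.05 were 8 of the 33 and 1800 of all 17097 genes. The blood vessel median was 0.02, with 13 genes above 0 and 12 below, and the median over all genes was 0.00. The lowest value was that of Vwf (-1.10, SE 0.26, adjusted p = 0.2222), followed by Lyve1 (-0.70, SE 0.17, adjusted p = 0.2295) and Ramp2 (-0.45, SE 0.11, adjusted p = 0.2295). Those 3 genes passed with an intensity trend and robust prior in the fit, and Lyve1 alone with the mean of all its probe sets (-0.78, adjusted p = 0.0456).

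The transgene gave no call among the 33 genes under PBA. Comparing PBA-treated hIAPP with PBA-treated wild-type islets, limma called 0 of 33 genes, against 0.421% of all genes (0.322% higher and 0.0994% lower). At an unadjusted p below 0.05 were 8 of the 33 and 2072 of all 17097 genes. The blood vessel median was -0.08, and values ran from Aplnr at -0.60 (SE 0.17, adjusted p = 0.2428) to Ramp2 at 0.60 (SE 0.11, adjusted p = 0.1018). The dimmer Ramp2 probe sets gave 0.35 and -0.05, and the dimmer Aplnr set -0.55. Tie1 and Angpt2 were at -0.55 each (adjusted p = 0.2367 and 0.2081), and Cd34 at 0.45 (adjusted p = 0.2903). Aplnr and Ramp2 passed with the intensity trend and robust prior.

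PBA-treated hIAPP islets were also set against untreated wild-type islets. Limma called 0 of 33 genes, against 0.368% of all genes. At an unadjusted p below 0.05 were 4 of the 33 and 1876 of all 17097 genes. These 4 were Vwf (-1.10, SE 0.26, adjusted p = 0.1814), Lyve1 (-0.95, SE 0.17, adjusted p = 0.1003), Tie1 (-0.75, SE 0.15, adjusted p = 0.1360) and Tek (-0.45, SE 0.16, adjusted p = 0.3581). The blood vessel median was -0.05. Lyve1 passed with the mean of its probe sets (-0.98, adjusted p = 0.0188), and Lyve1 and Vwf with the intensity trend and robust prior. A value that misses the threshold does not show that levels were equal.

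Whether PBA acted differently in the 2 genotypes was tested as an interaction, the PBA change in hIAPP minus the PBA change in wild-type islets, over the same 8 arrays. Of the 33 genes, 6 passed, all of them blood vessel genes with a negative value, against 1.96% of all genes (0.269% higher and 1.69% lower). At an unadjusted p below 0.05 were 26 of the 33 and 2777 of all 17097 genes. Aplnr gave -2.05 (SE 0.24, adjusted p = 0.0168), its PBA change being -1.75 in hIAPP and 0.30 in wild-type islets. Vwf gave -2.10 (SE 0.37, adjusted p = 0.0423), with -3.20 in hIAPP and -1.10 in wild-type islets. Tek gave -1.30 (SE 0.23, adjusted p = 0.0407), with -1.60 in hIAPP and -0.30 in wild-type islets. Cdh5 gave -1.15 (adjusted p = 0.0364), Eng -0.95 (adjusted p = 0.0484) and Mmrn2 -0.95 (adjusted p = 0.0423), each with a wild-type change of 0.05. The median over the blood vessel genes was -0.72 and over all genes 0.00. Lyve1 had a positive value, 1.0 (SE 0.24, adjusted p = 0.0909), with a PBA change of 0.30 in hIAPP and -0.70 in wild-type islets. It did not pass, but it did with the mean of all probe sets (0.98, adjusted p = 0.0311), with the intensity trend and robust prior (1.0, adjusted p = 0.0071) and in its second probe set (0.95, adjusted p = 0.0468). None of the 6 passed when any 1 array was left out, without both doubted arrays or with the acinar covariate. With that covariate 16 of the 33, and 1806 of all 17097 genes, had an unadjusted p under 0.05. Of all 17097 genes, limma called 0 to 3 in the 8 fits without 1 array, 0 without both doubted arrays and 4 with the acinar covariate.

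Beside the 33 genes, 120 other measured genes of vessel biology were read in 7 lists. For the transgene 62 of the 120 rose and 1 fell (median 0.72), against 7.77% higher and 3.19% lower over all genes. For PBA in hIAPP islets 58 fell (median -0.70), against 6.32% of all genes. Vessel activation and coagulation genes rose in 10 of 14 and fell with PBA in 9. Selp (P-selectin), which captures rolling leukocytes, was at 4.7 and 5.0 in PBA-treated hIAPP islets and at 7.3 and 7.6 in untreated hIAPP islets. Selp in wild-type islets was at 4.9 and 4.7 with PBA and at 5.5 and 5.6 without. Its changes were 1.90 (SE 0.15, adjusted p = 0.00063) and -2.60 (adjusted p = 0.0011). Icam1, a leukocyte adhesion molecule that leukocytes also make, changed by 1.80 (adjusted p = 0.0014) and -2.30 (adjusted p = 0.0014).

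In the vasoactive list 8 of 16 genes rose and 8 fell with PBA, among them Gucy1a1, a subunit of the nitric oxide receptor (2.0 and -1.45), and Cav1, of endothelial caveolae (0.95 and -1.15). Edn1, the endothelin gene, was below background in all groups but untreated hIAPP (mean 5.70, against 4.25 in untreated wild-type and 4.25 in PBA-treated hIAPP islets). Where a group is below background, the fold is a bound against the higher of the background and the gene's own value, which gives at least 2.02-fold for Edn1 in both comparisons (adjusted p = 0.0029 and 0.0045). VEGF, angiopoietin and hypoxia genes rose in 5 of 11 and fell in 4, with Epas1 (HIF-2 alpha) at 0.80 and -0.70, Plxnd1, a semaphorin receptor, at 1.25 and -0.95, and Svep1, a matrix protein of lymphatic development, at least 3.06-fold higher with the transgene and at least 3.06-fold lower with PBA (adjusted p = 0.00027 and 0.0011). Notch and BMP genes rose in 7 of 18 and fell in 5, including the BMP receptor gene Bmpr2 (0.70 and -0.45), the ephrin receptor gene Ephb4 (at least 1.24-fold in both comparisons, adjusted p = 0.0062 and 0.0042) and the Notch ligand gene Jag1 (at least 1.82-fold in both, adjusted p = 0.0100 and 0.0212). Other endothelial surface and transcription factor genes rose in 20 of 36 and fell in 20, among them She (1.25 and -1.30), Ecscr (1.40 and -1.50) and the fatty acid receptor gene Cd36 (1.40 and -2.75).

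Basement membrane genes rose in 10 of 14, with Spock2 the 1 that fell, and 10 fell with PBA. The collagen IV gene Col4a1 changed by 1.35 and -1.15, the nidogen gene Nid1 by 1.60 and -1.05, and the integrin gene Itga1 was at least 2.86-fold higher with the transgene (adjusted p = 0.00066) and changed by -1.70 with PBA in hIAPP islets. Of 12 other lymphatic genes 3 rose and 3 fell, Ccl21b, Pdpn and Ccbe1, while Lyve1 fell with the transgene. Ccl21b, a chemokine gene of lymphatic vessels and lymphoid tissue, was at 3.8 and 4.3 in PBA-treated hIAPP islets and at 7.9 and 8.0 in untreated hIAPP islets. Ccl21b in wild-type islets was at 3.8 and 4.3 with PBA and at 5.0 and 5.6 without. It rose by 2.65 with the transgene (adjusted p = 0.0013) and was at least 9.61-fold lower with PBA in hIAPP islets (adjusted p = 0.0011). Pdpn, podoplanin of lymphatic endothelium and of fibroblasts, rose by 1.55 (adjusted p = 0.0049) and was at least 2.58-fold lower with PBA in hIAPP islets (adjusted p = 0.0042).

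Markers of other cell types moved with the blood vessel genes. Pericyte and smooth muscle genes rose in 8 of 10 and fell with PBA in 8, and their mean level was 6.71 and 6.56 in PBA-treated hIAPP, 7.88 and 7.75 in untreated hIAPP, 6.2 and 6.3 in PBA-treated wild-type and 6.40 and 6.35 in untreated wild-type islets. Fibroblast and stellate genes rose in 9 of 12 and fell in 8, with means of 6.81 and 7.15 in PBA-treated hIAPP, 8.32 and 8.28 in untreated hIAPP, 6.22 and 6.03 in PBA-treated wild-type and 6.51 and 6.03 in untreated wild-type islets. Macrophage genes rose in 12 of 16 and fell in 12. In PBA-treated hIAPP against PBA-treated wild-type islets, 7 of the 16 were higher (0.322% of all genes). There 0 of the 26 blood vessel genes passed, while 8 of the 33, and 2072 of all 17097 genes, had an unadjusted p under 0.05. The macrophage mean was 6.89 and 6.74 in PBA-treated hIAPP islets and 5.76 and 5.75 in PBA-treated wild-type islets, while the blood vessel mean was 6.98 and 7.07 in PBA-treated hIAPP islets and 7.08 and 7.11 in PBA-treated wild-type islets. Beta-cell genes went the other way, 4 of 13 lower with the transgene and 2 higher with PBA in hIAPP islets. Cd163, Timd4, Cnn1, Col1a2 and Pdgfra of these lists were above background on no array. The part of these cell types in the blood vessel values was not tested.

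Acinar genes had no call for the transgene, where limma called 0 of 15 and the groups overlapped for all 15. With PBA in hIAPP islets 2 of 15 fell and the median was -2.20. With the arrays' acinar mean as a covariate, the change of Vwf for PBA in hIAPP islets was -2.82 (adjusted p = 0.0644), that of Cdh5 -1.28 (adjusted p = 0.0799) and that of Tek -1.34 (adjusted p = 0.0958). For the transgene 16 of the 33 genes passed with that covariate, against 9.34% of all genes. Platelet genes, which could also bring Vwf, rose in 1 of 8, Pf4 (1.65 and -1.95, adjusted p = 0.0014 and 0.0020), and 4 of the 8 were above background on no array. Lymphoid genes rose in 2 of 12 with the transgene and fell in 3 with PBA in hIAPP islets (median -1.0). Red cell genes rose in 0 of 6 and fell in 1 with PBA in hIAPP islets, where 6.32% of all genes fell.

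**Figure D4:**
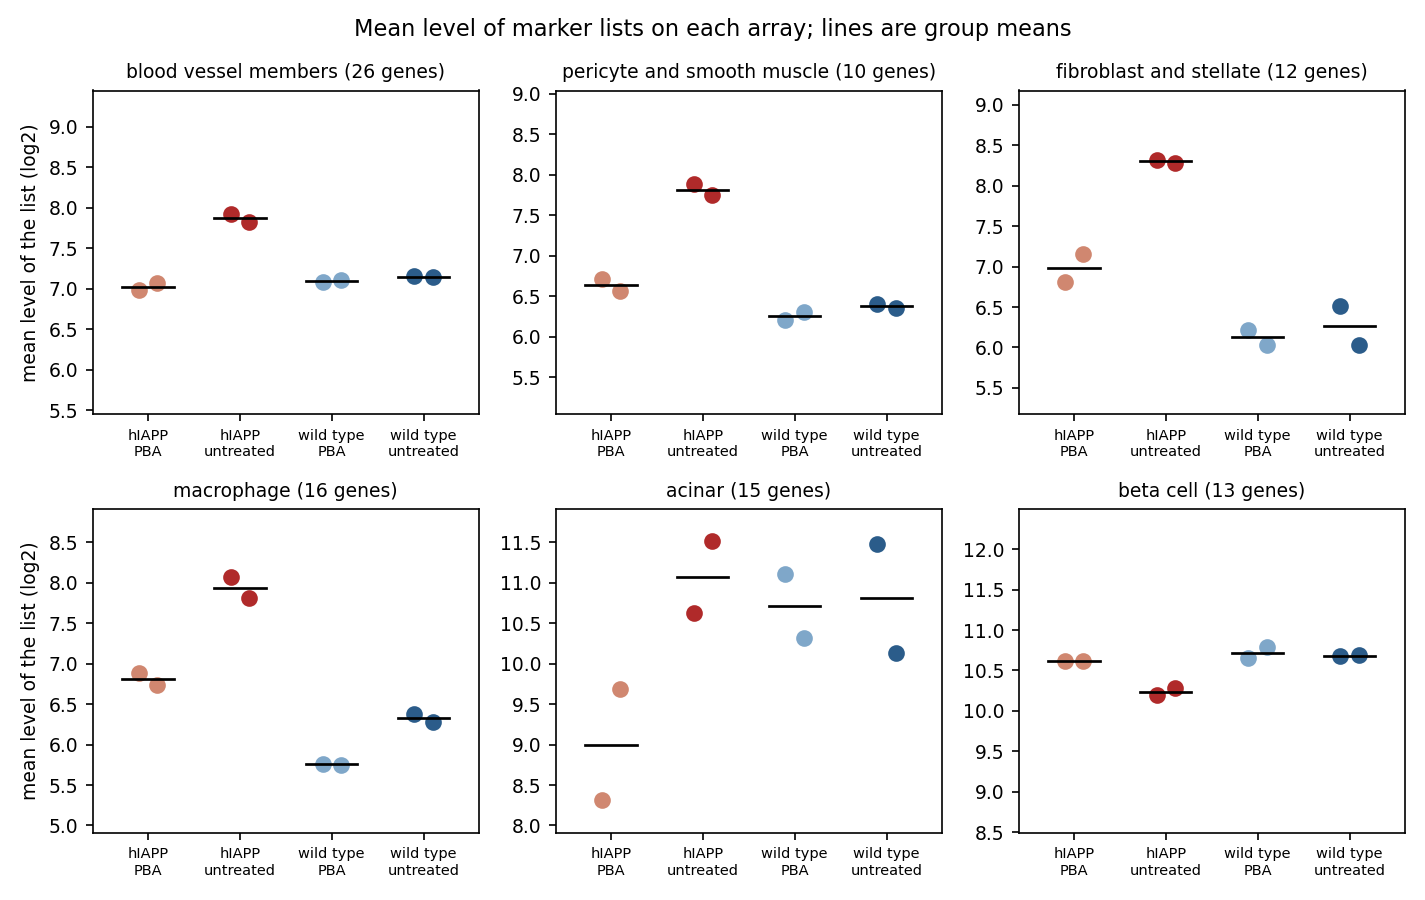
Points are the mean log2 level of a marker list on each array and lines are group means, with the same span in every panel. The blood vessel, pericyte, fibroblast and macrophage lists are highest on the untreated hIAPP arrays, the beta-cell list is lowest there, and the acinar list is lowest on the PBA-treated hIAPP arrays (8.31 and 9.69).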

How the data were processed

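The members, the gene lists and the motifs were chosen with earlier results of these data known, and their counts are descriptions. The authors deposited log2 values, 1 per probe set and array, made with RMA in affy, per the submitters' processing notes (no version given). RMA subtracts background and sets all arrays to 1 distribution. The values are rounded to 1 decimal. Of 45141 probe sets, 104 controls were left out, and 28898 name exactly 1 gene. The brightest set over the 8 arrays stood for each of 17097 genes, and 15 members had several.

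The 4 group means were fitted with limma 3.58.1 in R 4.3.3 (4 residual and 3.27 prior degrees of freedom), two-sided, with Benjamini-Hochberg adjustment over all 17097 genes and a threshold of 0.05. The fit was tested on simulated data. Precision is limited by the number of arrays, the rounding and, in dim genes, background signal. SD and SE are on the log2 scale.

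All 33 members are named. Of every other list, up to 3 genes past the threshold with the smallest p for the transgene are named. The alternatives were only the groups compared, arrays left out, a replicate block, a filter on dim genes, other probe set rules, an intensity trend, array weights and an acinar covariate. Upstream sequence came from RefSeq's GRCm38.p6 table. Python 3.11.15, pandas 2.3.3 and matplotlib 3.10.9 were used.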

Additional observations from a re-analysis of the deposited data

Results flagged for a closer look

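In 6 blood vessel genes the change with PBA differed between the genotypes by the interaction test (limma, adjusted p below 0.05), against 1.96% of all genes, and none of the 6 passed in any of the 8 fits without 1 array. The PBA change in hIAPP minus that in wild-type islets was -2.10 for Vwf, -2.05 for Aplnr, -1.30 for Tek, -1.15 for Cdh5, -0.95 for Eng and -0.95 for Mmrn2, on the log2 scale. PBA-treated hIAPP arrays lay below untreated hIAPP arrays for all 6, as for 20.8% of all genes. The 6 were picked by the interaction on these same arrays, so this is no separate result. PBA-treated and untreated wild-type arrays overlapped for Cdh5, Eng, Mmrn2 and Aplnr. For Tek and Vwf both PBA-treated wild-type arrays lay below both untreated ones, as for 14.9% of all genes. The mean acinar level was 8.31 and 9.69 on the PBA-treated hIAPP arrays and 10.62 and 11.51 on the untreated hIAPP arrays, and its part in the difference was not tested apart from the covariate fit, in which none of the 6 passed (adjusted p = 0.1386 for Aplnr, and 0.1535 for Cdh5).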

How the results depend on the processing

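For the transgene, 18 of the 33 genes passed. The count was 2 with only the groups compared, 2 without both doubted arrays and 5 to 17 without 1 array. For PBA in hIAPP islets 17 passed, against 0 with only the groups compared, 0 without both doubted arrays, 0 with the acinar covariate (limma, with 22, 22 and 18 genes at an unadjusted p under 0.05) and 3 to 14 without 1 array. In wild-type islets PBA gave 0 calls (0.292% of all genes), 1 with the mean of all probe sets (0.404%) and 3 with the intensity trend and robust prior (1.75%). The transgene under PBA gave 0 (0.421% of all genes), and 2 with that prior (2.04%). PBA-treated hIAPP against untreated wild type gave 0 (0.368% of all genes), 1 with the mean of all probe sets (0.427%) and 2 with that prior (2.15%). It gave 1 with every probe set on its own. The interaction gave 6 (1.96% of all genes), 10 with dim genes filtered out (4.31% of the genes kept) and 17 with the intensity trend and robust prior (6.19%). It gave 3 with every probe set on its own and 0 with the acinar covariate (0.0234%). None passed without both doubted arrays or in any fit without 1 array. The 3 interaction calls with every probe set were Aplnr, Mmrn2 in a dimmer set, and Lyve1 with a positive value. The 17 included Lyve1 and Ramp2, both positive. No gene called with all 8 arrays changed sign under these alternatives. The replicate block, dim gene filter, intensity trend, array weights and fit to the compared groups alone left the fold changes as they were. Only the acinar covariate, other probe set rules or a left-out array of the compared groups could change a sign. Replicate numbers were also fitted as a block. Deviations of same-numbered arrays from their group means correlated at -0.14 to 0.098 over all genes in 6 pairs of groups. These correlations cannot show whether same-numbered arrays share a batch. With this replicate block the counts were 15 for the transgene (8.69% of all genes), 16 for PBA in hIAPP islets (6.01%) and 1 for the interaction (Aplnr, 0.690%). They were 0 for the other comparisons. Apart from fewer samples or fewer genes tested, which the alternatives themselves set, the cause was not tested. The SE of 0.10 to 0.26 over the 33 genes limits the changes that 2 arrays a group can show for the transgene and for PBA.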

Other observations

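Genes of high endothelial venules, the vessels through which lymphocytes enter lymphoid tissue, were seen after their values were known and are outside the rule for named genes. Glycam1, a sialomucin of those vessels, was at or below background in every group but untreated hIAPP, with means of 3.5 in PBA-treated hIAPP, 5.0 in untreated hIAPP and 3.20 in untreated wild-type islets. Madcam1, the mucosal addressin of venules, had means of 3.75 in PBA-treated hIAPP, 5.35 in untreated hIAPP and 4.00 in untreated wild-type islets. Against background, untreated hIAPP islets were at least 1.24-fold higher for Glycam1 and at least 1.59-fold higher for Madcam1, both against PBA-treated hIAPP and against untreated wild-type islets (adjusted p from 0.0079 to 0.0247). Chst4, a sulfotransferase that shapes selectin ligands in those venules, and Sele (E-selectin) were above background on no array. Among lymphoid genes, Cd3d was at least 1.2-fold higher with the transgene and Cxcr5 at least 1.12-fold (limma, adjusted p = 0.0100 and 0.0147).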
